A study of Mus musculus with 45 samples.

Results

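The SR, hnRNP and RBM splicing factors are the protein-coding genes whose symbols are Srsf, Hnrnp or Rbm followed by the family's own number or letter. Chosen by symbol alone, they were 69 of the 34994 genes listed in the deposited tables, made up of 11 Srsf, 20 Hnrnp and 38 Rbm genes. Of these, 66 passed the filter on low counts in all 12 comparisons between groups. The other members, Rbm42, Rbm44 and Rbm8a2, had 139, 9 and 98 reads in the 45 libraries together and were not tested. The libraries came from forelimb buds of gestation day 13 CD1 mouse embryos, with limbs of male and female embryos pooled in culture bottles. Cultures held for 3, 24 or 48 h received the solvent dimethyl sulfoxide (control), 10 µM bisphenol S (BPS) or 50 µM BPS, with 5 libraries in each of the 9 groups. BPS, a bisphenol bridged by a sulfone group, replaces bisphenol A in many products. The strain label of the 50 µM libraries at 48 h is written with a number that counts up from library to library, while all other libraries are labelled CD1. The labels do not say that libraries of a group came from separate litters or cultures, so p-values measure only the spread between these libraries.

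SR proteins carry an RNA recognition motif and a domain rich in arginine-serine pairs, which kinases of the CLK and SRPK families phosphorylate, and they mostly promote the use of exons they bind. The hnRNP proteins coat nascent transcripts, and several of them, such as hnRNP A1, commonly repress exons. The RBM genes share only the RNA-binding motif of their name, so the group joins core spliceosome parts, tissue-specific regulators and proteins of RNA modification or decay. Many SR and hnRNP genes control their own mRNA through exons that expose it to nonsense-mediated decay. Counts per gene do not show which exons a transcript held.

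The libraries held 15233143 to 23077457 counted reads, with a median of 18225641. All 10 forelimb bud mesenchyme markers averaged at least 1 CPM in each of the 9 groups. Levels below are CPM, a read count per 1000000 reads of its library, scaled over all 45 libraries by trimmed means of M values (TMM). Log2 changes and p-values are from edgeR's quasi-likelihood test of the 10 libraries of each comparison, with Benjamini-Hochberg adjustment over all genes tested, and ± after a log2 value is its standard error. A gene was called higher or lower at an adjusted p under 0.05. In these bulk samples, fewer cells of a type and less RNA per cell cannot be told apart.

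Per kilobase of the deposited gene length, the hnRNP A and B genes were the most abundant members in control cultures at 3 h. Hnrnpa1 stood at 538.9 CPM per kb and Hnrnpa0 at 444 CPM per kb. Hnrnpa2b1, Hnrnpab and Hnrnpa3 followed at 196, 189 and 155 CPM per kb. The lowest members by the same measure were Rbm44 at 0.0055, Rbm8a2 at 0.071, Rbm42 at 0.091, Rbm47 at 0.21 and Rbm11 at 0.52 CPM per kb.

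In control cultures these genes moved mostly downward with time. From 3 to 48 h, 41 of the 66 tested members fell and 3 rose, where 24.8% of all 16850 genes tested fell and 24.5% rose. Among the Hnrnp genes 17 of 20 were lower and 0 higher. Among the Srsf genes 6 of 11 were lower and 1 higher, and among the Rbm genes 18 of 35 were lower and 2 higher. The median log2 change of the members was -0.23, against -0.01 for all genes tested. Family medians were -0.34 for Hnrnp, -0.24 for Srsf and -0.22 for Rbm. The control libraries of 3 and 48 h did not overlap for 35 members that were lower and 1 that was higher, against 17.9% and 18.4% of all genes.

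Both steps of the time course contributed. Between 3 and 24 h, 27 members fell and 8 rose, where 20.1% of all genes fell and 20.0% rose. Between 24 and 48 h, 12 fell and 0 rose, where 6.55% of all genes fell and 9.44% rose. Of the 12, 7 had also fallen in the first step, namely Srsf1, Srsf2, Srsf3, Srsf7, Hnrnpa1, Hnrnpd and Hnrnpdl. These steps share the 24 h libraries. The other 5, Hnrnpa2b1, Hnrnpk, Hnrnpr, Rbm15b and Rbm4b, passed in the second step and not in the first, and the difference between the steps was not tested. Fitting all 45 libraries together called 25 members in the second step instead of 12, and 4063 of 18432 genes in all.

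**Figure D1:**
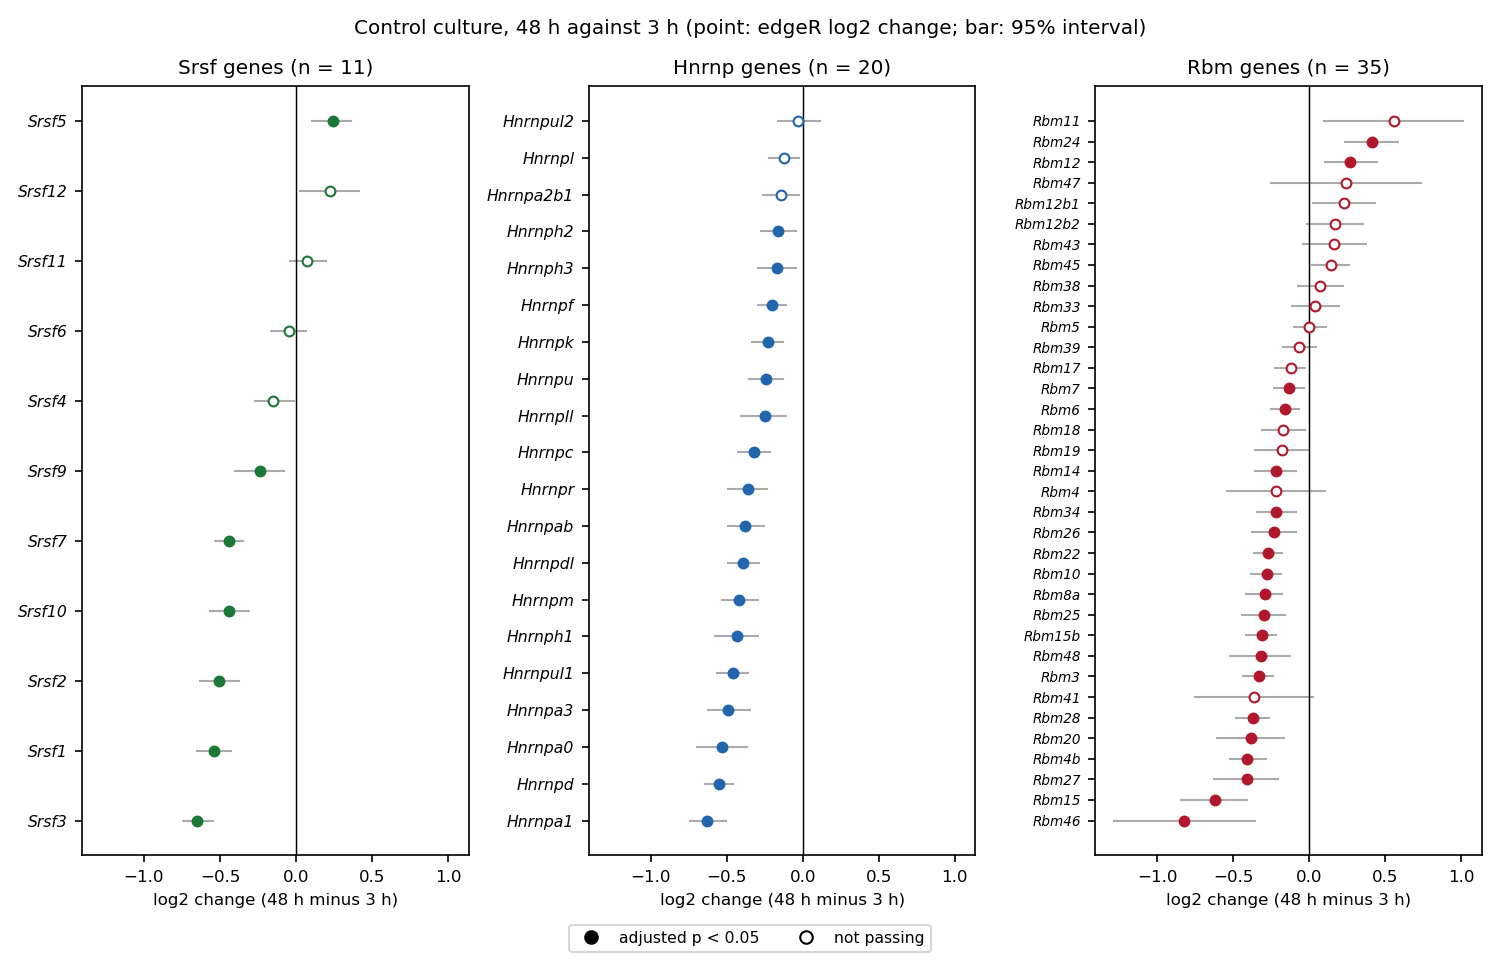
Log2 change of each tested member in control cultures between 3 and 48 h (horizontal axis), with Srsf, Hnrnp and Rbm genes in separate panels, edgeR estimates as points and 95% intervals as bars. Filled points passed an adjusted p of 0.05, which 41 members did to the left of 0 and 3 to the right.

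Srsf3, one of the smallest SR proteins and a regulator of its own poison exon, had the largest fall of the SR genes. Its control libraries read 572, 592, 571, 564.5 and 585.5 CPM at 3 h. They read 399, 406, 441, 465 and 454.5 CPM at 24 h, and 366, 364, 357, 359.9 and 388 CPM at 48 h. The 3 times did not overlap at any library, and each step was downward. The change from 3 to 48 h was -0.65 ± 0.054 on the log2 scale (edgeR, adjusted p = 3.79e-08). Srsf1, the founding SR protein, went from 517 ± 31.1 CPM (SD, n = 5) at 3 h to 425 ± 25.7 at 24 h and 355 ± 13.7 at 48 h. Srsf7 went from 258 ± 7.16 to 217 ± 10.4 and 190.4 ± 5.62 CPM over the same times. Srsf1 and Srsf7 thus fell by 0.54 and 0.44 on the log2 scale between 3 and 48 h.

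Srsf2, also known as SC35 and a defining component of nuclear speckles, read 352, 359, 312, 363 and 379.7 CPM in control libraries at 3 h. At 24 h it read 268, 278, 296.5, 294 and 287 CPM, and at 48 h 221, 238, 273, 258 and 249.7 CPM. The libraries of 3 h lay above all later ones, and those of 24 and 48 h overlapped. Its change from 3 to 48 h was -0.51 ± 0.069 (edgeR, adjusted p = 1.09e-05). The deposited counts may mix strands here, because the labels do not describe a kit that keeps strand, and Srsf2 overlaps Mfsd11 and Mettl23 on the opposite strand. Those partners changed by 0.15 and 0.14 over the same interval, with adjusted p of 0.07 and 0.248 in edgeR.

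Not all SR genes followed. Srsf5, whose transcript is known to respond to growth signals, read 314.5, 364, 329, 355 and 371 CPM at 3 h and 425, 475, 452, 408 and 428.5 CPM at 24 h. Every 24 h library lay above every 3 h library. The rise was 0.33 ± 0.056 on the log2 scale (edgeR, adjusted p = 6.09e-05), and at 48 h Srsf5 was still 0.24 ± 0.068 above 3 h. Srsf11 and Srsf12 rose by 0.17 and 0.40 between 3 and 24 h and did not pass between 3 and 48 h. Srsf6 changed by 0.10 from 3 to 24 h and by -0.05 from 3 to 48 h, with adjusted p of 0.125 and 0.55 in edgeR.

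Hnrnpa1, which antagonises SR proteins at many exons, led the hnRNP genes. Its control libraries read 1854.5, 1701, 1699, 1554 and 1688 CPM at 3 h. At 24 h they read 1271, 1407, 1448, 1331 and 1281 CPM, and at 48 h 1115, 1087, 1116, 1129 and 1045 CPM. No library of a later time reached any library of an earlier one. The change from 3 to 48 h was -0.63 ± 0.063 (edgeR, adjusted p = 3.69e-07). Hnrnpd, which encodes the AU-rich element binding protein AUF1, went from 408 ± 7.63 CPM (SD, n = 5) to 323 ± 18.4 and 277 ± 9.65. Its paralog Hnrnpdl went from 451 ± 18.9 to 403 ± 19.7 and 344 ± 13.6 CPM.

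Hnrnpa0 fell by 0.53 ± 0.088 between 3 and 48 h, and its libraries spread widely at the later times. It read between 1161 and 1229 CPM at 3 h, between 703 and 1185 CPM at 24 h and between 679.9 and 1002 CPM at 48 h. The G-run binding Hnrnph1, the U-tract binding Hnrnpc and the scaffold-attachment factor Hnrnpu fell by 0.43, 0.32 and 0.24. Hnrnpk, a poly-C binding protein, fell by 0.23. The 3 hnRNP genes that did not pass between 3 and 48 h were Hnrnpa2b1, Hnrnpl and Hnrnpul2, and the first of these changed by -0.14 (edgeR, adjusted p = 0.0631). Pseudogene copies of Hnrnpa1 and the close pair Hnrnph1 and Hnrnph2 can share reads, so their counts are less certain.

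Among the RBM genes the largest fall was of a rare transcript. Rbm46, known for its role in germ cells, read 4.24, 5.05, 2.62, 4.54 and 4.46 CPM at 3 h and 1.97, 1.46, 3.65, 2.01 and 2.67 CPM at 48 h. The groups overlapped, with replicate 3 lowest at 3 h and highest at 48 h. Its change was -0.82 ± 0.238 (edgeR, adjusted p = 0.00884). Rbm15, a subunit of the complex that guides adenosine methylation of RNA, went from 44.7 ± 6.23 CPM (SD, n = 5) at 3 h to 29.75 ± 2.8 at 24 h. Its 3 to 24 h change was -0.59 ± 0.088, and between 3 and 48 h it was -0.62 ± 0.114. Rbm15b fell by 0.31 between 3 and 48 h, while Manf, which overlaps it on the same strand, rose by 0.91.

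Rbm3, whose mRNA and protein are induced by mild cold, fell between 3 and 24 h and did not pass between 24 and 48 h. Control libraries read 334, 326, 327, 301.5 and 321 CPM at 3 h. They read 225, 252, 262, 263 and 239 CPM at 24 h and 254, 250, 246, 265 and 258 CPM at 48 h. The 3 h libraries lay above all others. The change from 3 to 24 h was -0.38 ± 0.051 (edgeR, adjusted p = 4.83e-06). Cirbp, the other cold-inducible RNA-binding protein gene, fell by 0.30 over the same interval. All cultures were labelled as held at one temperature, and a part of temperature in these falls was not tested.

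The RBM genes also held the largest rises. Rbm24, a regulator of muscle exons, read 45.3, 40.8, 37.7, 44.3 and 48.9 CPM at 3 h and 66, 62.1, 46, 56.3 and 66.3 CPM at 24 h. Replicate 3 at 24 h was the one library within the 3 h range. The rise was 0.45 ± 0.093 to 24 h and 0.41 ± 0.090 to 48 h (edgeR, adjusted p = 0.000824 and 0.00112). The 11 tested skeletal muscle markers all rose between 3 and 24 h, and their summed level went from 1450 to 1646 CPM at 3 h to 2714 to 4214 CPM at 24 h. Their part in the Rbm24 result was not tested. Rbm12 rose by 0.41 to 24 h and 0.27 to 48 h, but it shares its locus with Cpne1 on the same strand. Rbm45, Rbm33 and Rbm12b2 rose by 0.25, 0.23 and 0.21 to 24 h and did not pass at 48 h.

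Of the well-studied cancer-linked splicing regulators in the group, Rbm10 and Rbm6 fell by 0.28 and 0.16 between 3 and 48 h. Rbm25, which acts with the U1 particle, fell by 0.30, and Rbm20, known from titin splicing in heart, by 0.38. Rbm5, Rbm39 and Rbm38 changed by 0.00, -0.07 and 0.07, and Rbm47 and Rbm4 by 0.24 and -0.22, none of which passed in edgeR. Rbm4 and Rbm4b are close paralogs, so reads could be split between them, and the gene model Gm21992 overlaps Rbm14 and Rbm4 on their own strand and Rbm4b on the opposite strand.

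**Figure D2:**
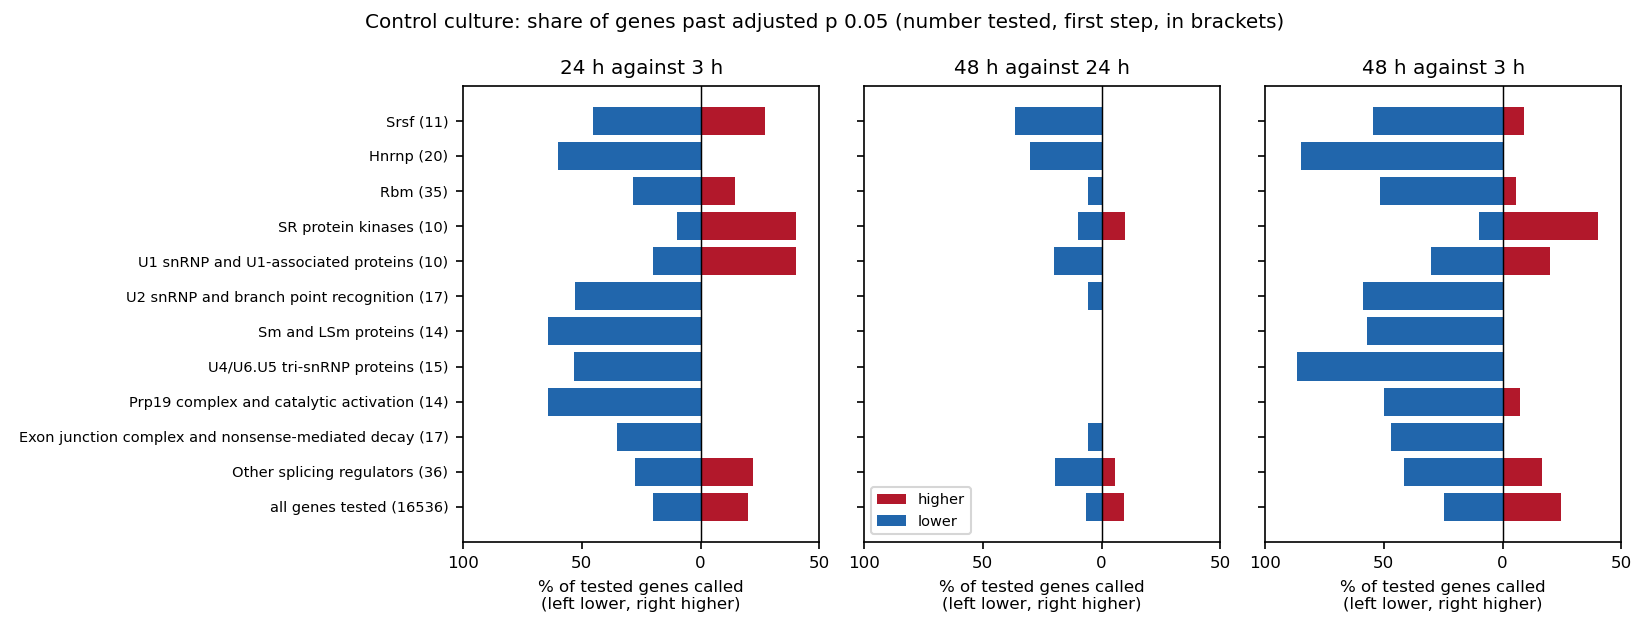
Share of tested genes called lower (left, blue) or higher (right, red) in control cultures for the Srsf, Hnrnp and Rbm families, 8 lists of other splicing genes and all genes, one panel per time comparison. In the 48 h against 3 h panel the Hnrnp bar reaches 85.0% lower, next to 24.8% for all genes.

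Some of the other lists of splicing genes shared part of this course. The U1, Prp19 complex and exon junction lists are in the plot of shares by family and list. They are not counted here, so the counts below do not cover every list. Between 3 and 48 h, 13 of 15 proteins of the U4/U6.U5 tri-snRNP list were lower, such as Ppih at -0.66, and 0 were higher. Of the U2 list, 10 of 17 were lower, and of the Sm and LSm list 8 of 14, such as Lsm4 at -0.53, again with 0 higher in either list. Of the SR protein kinases 4 of 10 were higher and 1 lower. Srpk3, a kinase of muscle, rose by 1.51 ± 0.125 and Clk1 by 0.22 ± 0.072. The list of other regulators was mixed, with 15 of 36 lower and 6 higher. Of all genes tested, 24.8% were lower and 24.5% higher over this interval, so risers were not more frequent in this list. The 6 risers included Rbfox1 (0.76), Mbnl1 (0.72) and Mbnl2 (0.51), which shape adult-type splicing in muscle, while Tra2b and Ptbp1 fell by 0.51 and 0.38.

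Cell type and cycle markers moved with the same interval. All 10 proliferation markers fell between 3 and 24 h, with a median log2 change of -0.81, and all 10 were lower at 48 h than at 3 h. Their summed level was 1648 to 1895 CPM at 3 h, 1000.1 to 1081 CPM at 24 h and 1042 to 1078 CPM at 48 h. Of 8 cartilage markers 7 rose from 3 to 48 h, of 6 osteoblast markers 6, and all 10 forelimb mesenchyme markers fell. The part of these shifts in the members' falls was not tested.

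Promoters are shown for the 4 of the 7 genes that fell in both control steps whose start region holds a CCAAT box, the recognition sequence of the factor NF-Y. Sequences are 300-base RefSeq windows of GRCm38.p6, from 250 bases before to 50 after the RefSeq start, written 5′ to 3′ on the gene's strand. Capitals mark CCAAT, or ATTGG where the box lies on the other strand. Srsf1 is at chr11:88047123-88047422 on the plus strand, and Srsf2 at chr11:116853045-116853344 on the minus strand. Srsf3 is at chr17:29032410-29032709 and Hnrnpa1 at chr15:103240147-103240446, both on the plus strand.
Srsf1: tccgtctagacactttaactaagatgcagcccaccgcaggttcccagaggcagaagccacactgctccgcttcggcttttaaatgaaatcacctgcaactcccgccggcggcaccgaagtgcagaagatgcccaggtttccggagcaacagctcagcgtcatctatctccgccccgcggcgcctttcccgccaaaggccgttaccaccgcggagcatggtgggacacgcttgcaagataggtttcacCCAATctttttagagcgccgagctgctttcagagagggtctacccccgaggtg
Srsf2: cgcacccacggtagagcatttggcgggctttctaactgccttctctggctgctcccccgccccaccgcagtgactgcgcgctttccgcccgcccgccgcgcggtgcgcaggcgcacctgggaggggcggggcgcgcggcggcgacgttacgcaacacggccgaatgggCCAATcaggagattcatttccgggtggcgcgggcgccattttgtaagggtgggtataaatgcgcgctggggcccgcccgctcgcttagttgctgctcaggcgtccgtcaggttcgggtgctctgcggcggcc
Srsf3: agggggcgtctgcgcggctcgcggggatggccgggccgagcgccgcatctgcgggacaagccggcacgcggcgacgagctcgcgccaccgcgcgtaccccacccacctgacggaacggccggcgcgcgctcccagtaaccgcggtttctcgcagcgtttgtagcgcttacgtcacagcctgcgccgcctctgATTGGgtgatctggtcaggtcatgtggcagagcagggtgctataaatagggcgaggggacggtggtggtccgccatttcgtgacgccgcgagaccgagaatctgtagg
Hnrnpa1: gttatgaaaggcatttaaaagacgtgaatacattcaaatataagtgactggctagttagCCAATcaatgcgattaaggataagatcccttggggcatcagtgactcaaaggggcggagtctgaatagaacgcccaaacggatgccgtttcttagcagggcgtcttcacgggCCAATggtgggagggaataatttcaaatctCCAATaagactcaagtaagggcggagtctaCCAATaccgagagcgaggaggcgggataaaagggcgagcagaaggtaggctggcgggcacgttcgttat

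The Hnrnpa1 window held 4 boxes, all on the gene's strand, and the other windows 1 each. The box of Srsf1 spans the RefSeq start instead of lying before it. Among the 58 members with a RefSeq window, 29 (50%) held CCAAT on either strand, against 37.9% of 27025 promoters of the same length. By family, 12 of 18 Hnrnp, 4 of 11 Srsf and 13 of 29 Rbm windows held it. The GC box GGGCGG, searched on both strands and which can share its outer letters with CCAAT, was in 36 of 58 members (62.1%) and 35.9% of all promoters. Of the 7 genes that fell in both control steps, 6 held a GC box. Member windows were also richer in G and C, with a median of 62% against 52.7%, so GC-rich motifs are more likely in them by composition. These matches describe the letters and do not show binding.

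The annotation lists decay-targeted transcripts for many of these genes. In GENCODE M21, 31 of the 69 members (44.9%) have a transcript annotated as a target of nonsense-mediated decay, against 27% of 14383 protein-coding genes tested. The share was 81.8% for Srsf (9 of 11), 50% for Hnrnp (10 of 20) and 31.6% for Rbm (12 of 38). A transcript with a retained intron is annotated for 46 members (66.7%) and for 56.5% of the same protein-coding genes. The members have a median of 6 annotated transcripts and the wider set 5, and more annotated transcripts give more chances of either class.

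At 50 µM BPS and 3 h, one member fell and a small set of SR, hnRNP and RBM genes lay below control without passing. Of 66 members edgeR called 1 lower, Rbm25, and 0 higher, where 0.0239% of 16722 genes were called lower and 0.0299% higher. At an unadjusted p under 0.05 there were 14 of 66 members (21.2%), against 7.98% of all genes. With the replicate number as a block, which the libraries' shared deviations allow at this time, 8 members were lower and 1 higher, where 0.730% of genes were called lower and 0.801% higher. The 50 µM and control libraries did not overlap for 9 members that were lower and 1 that was higher, against 0.963% and 0.706% of all genes. The members' median difference was 0.02, against 0.00 for all genes, and 29 of 66 were below 0.

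Rbm25, whose protein binds the U1 particle and an exonic element of Bcl2l1, read 242.3, 241.3, 211.2, 244.9 and 242.5 CPM in control libraries at 3 h. The 10 µM libraries read 222, 214, 230, 226 and 223 CPM, and the 50 µM libraries 182, 192, 185, 197 and 209.6 CPM. Each 50 µM library was below each control and each 10 µM library, and control replicate 3 stood closest. The difference from control was -0.29 ± 0.052 (edgeR, adjusted p = 0.025, and 5.02e-05 with the replicate block). Leaving out single libraries moved the adjusted p between 0.0081 (without control replicate 3) and 0.142 (without 50 µM replicate 1), and the call was kept in 3 of 10 such fits. Limma-voom gave 0.0621. Gm29361, on the opposite strand of Rbm25, averaged about 1 CPM.

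Srsf2 was the next member by p. Against the control values above, the 10 µM libraries read 349.6, 346, 330.1, 350.2 and 357.5 CPM, and the 50 µM libraries 284, 291, 286, 304 and 305.5 CPM. Control at 24 h lay at 268 to 296.5 CPM. The 50 µM libraries of 3 h at 284, 291 and 286 CPM lay within that range, and those at 304 and 305.5 CPM above it. The 50 µM libraries at 3 h all lay below the control and 10 µM libraries of that time. The difference from control was -0.26 ± 0.051, and edgeR's adjusted p was 0.0531, or 0.00011 with the replicate block. It passed without control replicate 3 (adjusted p = 0.0081) and in none of the other 9 fits that left out 1 library. The opposite-strand partners Mfsd11 and Mettl23 differed by 0.01 and -0.10, with adjusted p of 0.984 and 0.881 in edgeR.

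**Figure D3:**
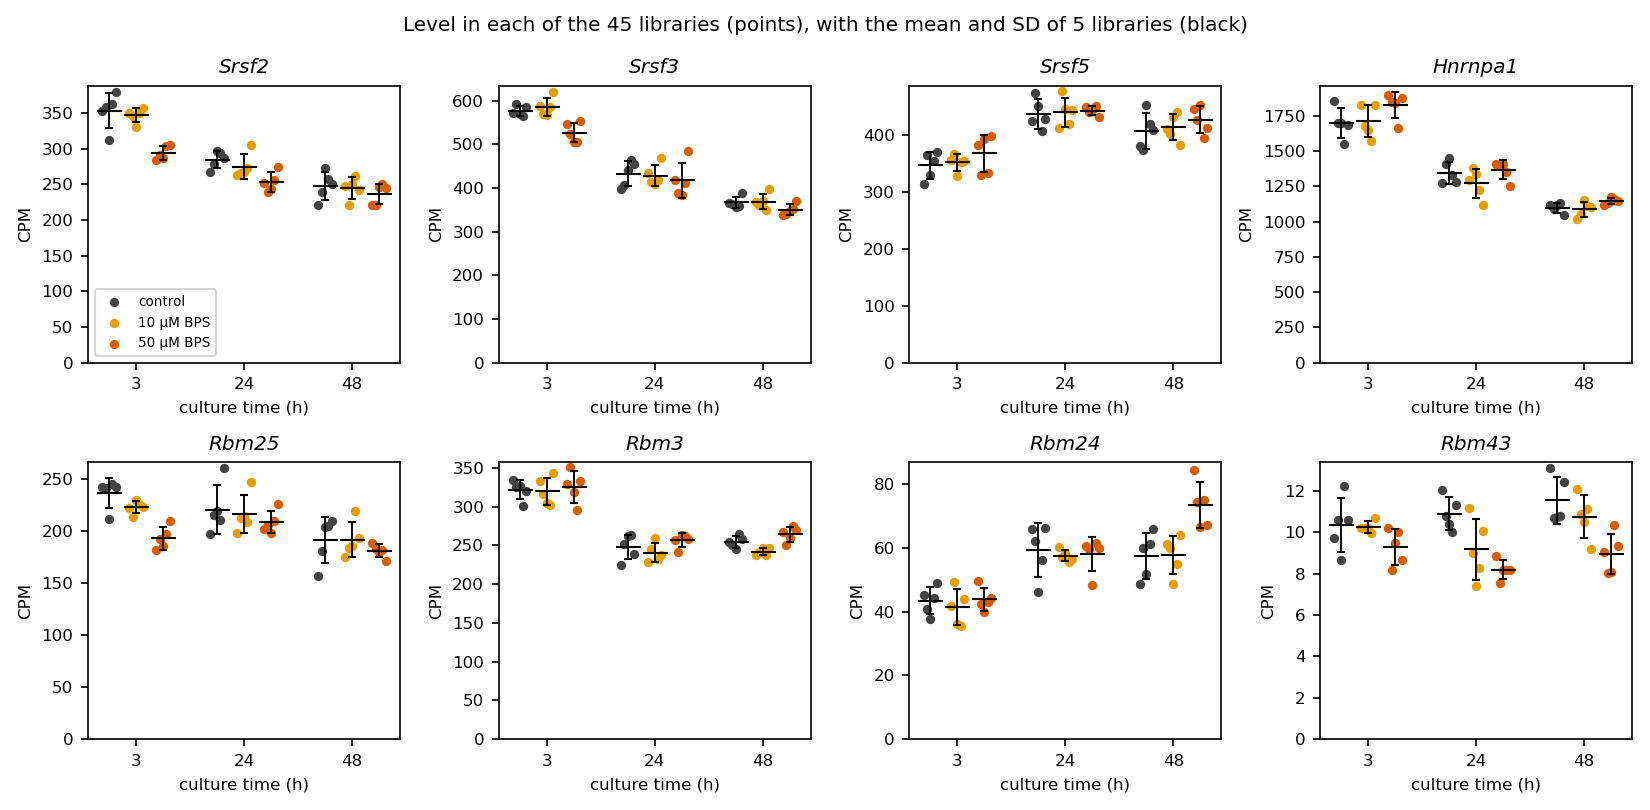
Level in CPM (vertical axis, from 0) of 8 members in each of the 45 libraries against culture time, coloured by treatment, with black marks for the mean and SD of 5 libraries. At 3 h the 50 µM points of Srsf2 (284 to 305.5 CPM) and Rbm25 (182 to 209.6 CPM) lie below the control points, and at 48 h those of Rbm24 (66.5 to 84.3 CPM) lie above.

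The other members that passed with the block at 3 h missed the threshold without it. Hnrnpl, which binds CA repeats, read 546 to 569 CPM in control and 460 to 518 CPM at 50 µM, a difference of -0.17 ± 0.044 (edgeR, adjusted p = 0.247 without and 0.0072 with the block). Srsf11, known as p54, read 279.7 to 321 CPM in control and 253 to 276 CPM at 50 µM. Rbm39, a U2AF-like factor, read 462.5 to 509 CPM in control and 427 to 455 CPM at 50 µM. Srsf3 read 564.5 to 592 CPM in control and 505.5 to 553 CPM at 50 µM. In these 4 genes no 50 µM library reached the control range.

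Hnrnpdl and Rbm5 differed by -0.16 each, with adjusted p of 0.364 and 0.38 in edgeR and of 0.0278 and 0.0193 with the block. Rbm45, a protein linked to neuronal inclusions, was the member on the higher side, with 38.9 to 46.8 CPM in control and 47.7 to 56.3 CPM at 50 µM. Its difference was 0.25 ± 0.063 (edgeR, adjusted p = 0.238, and 0.0067 with the block). Rbm45 read 45.4 to 52 CPM at 10 µM, overlapping both. DESeq2 called 4 members lower, Rbm25, Srsf2, Hnrnpl and Rbm39. The authors' deposited table, for which DESeq2 is the listed tool too, has the same 4 members lower and is not an independent test. It holds 41 genes with an adjusted p under 0.05 among 30680 listed.

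**Figure D4:**
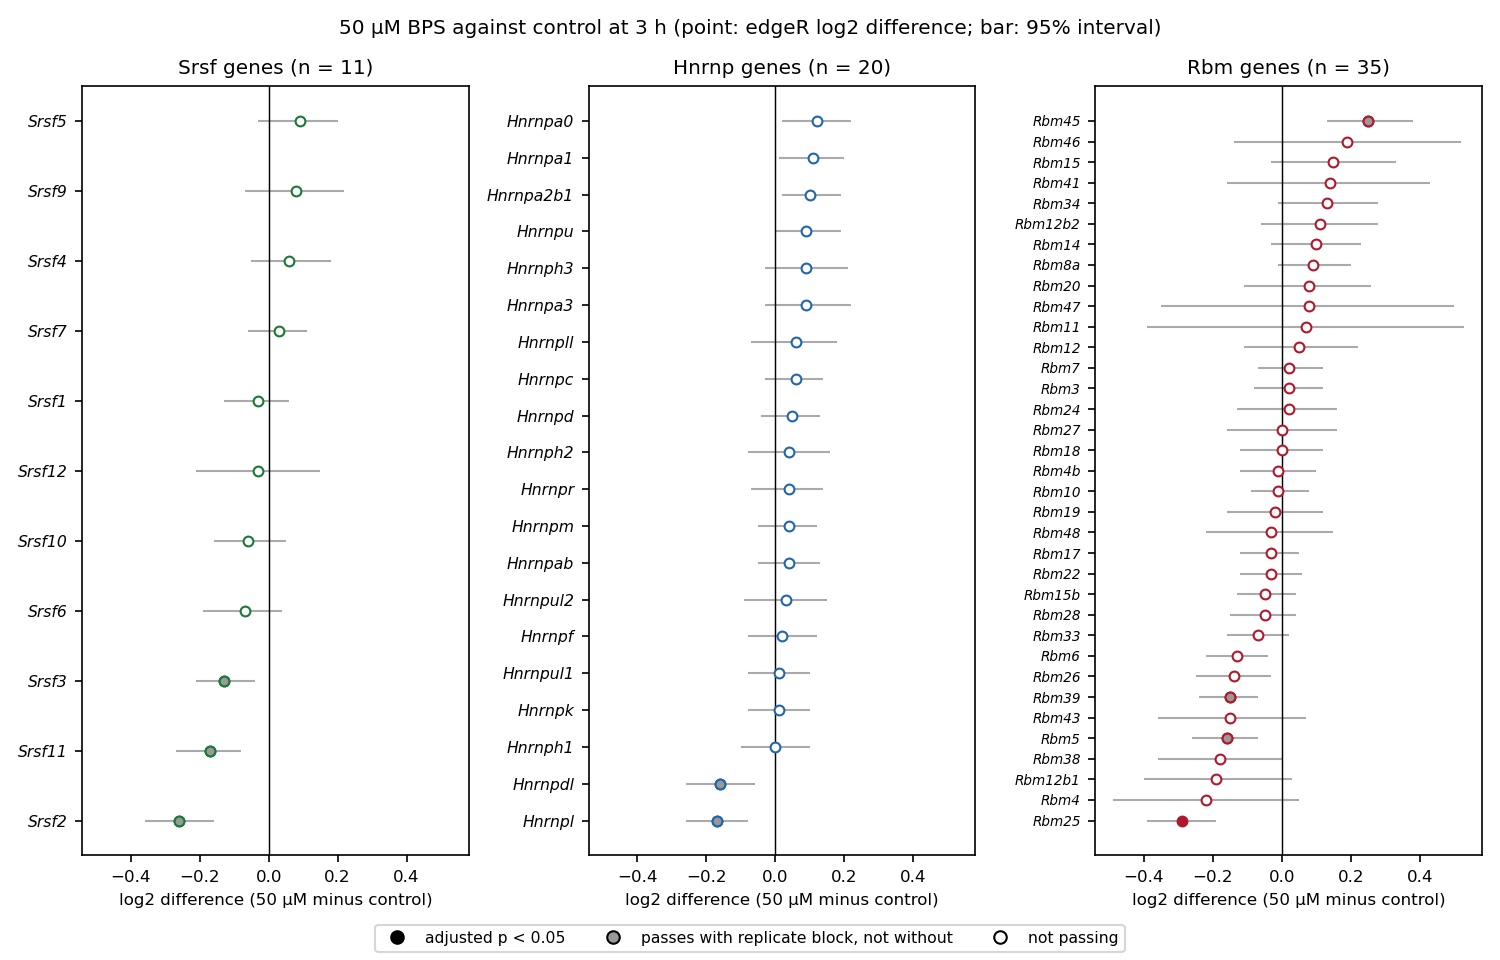
Log2 difference between 50 µM BPS and control at 3 h (horizontal axis) for the 66 tested members, by family, with 95% intervals as bars. Rbm25 (filled) passed edgeR's adjusted p of 0.05, grey points passed edgeR with the replicate block and not without it, and most members lie within 0.2 of 0.

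No hnRNP gene passed in edgeR at 3 h, and 3 of the 20 were below 0, with a median of 0.04 on the log2 scale. At the upper end Hnrnpa0, Hnrnpa2b1 and Hnrnpa1 differed by 0.12, 0.10 and 0.11, with adjusted p of 0.54, 0.561 and 0.609 in edgeR, and their groups overlapped. At the lower end were Hnrnpl and Hnrnpdl, with the values above. In the lists of other splicing genes edgeR called 0 genes at this time. With the block, which called 0.730% of all genes lower and 0.801% higher, 3 of the 10 SR protein kinases were lower. These were Clk1, Srpk1 and Clk2, which differed by -0.27, -0.20 and -0.17. The block also put Luc7l and Prpf39 of the U1 list, Prpf3, Srrm1, Srrm2 and Tia1 lower, and the paraspeckle gene Pspc1 higher at 0.25. The 10 proliferation markers summed to 1650 to 1872 CPM at 50 µM against 1648 to 1895 CPM in control, and 0 of them passed.

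At 10 µM BPS edgeR called 0 members at 3, 24 and 48 h, with 0% of all genes called at each time. At an unadjusted p under 0.05 there were 1, 2 and 0 of 66 members at those times (1.52%, 3.03% and 0.00%). Of all genes the shares were 1.98%, 2.99% and 2.62%. DESeq2 and limma-voom also called 0 members. The members of smallest p were Rbm45 at 3 h (0.20), Rbm38 and Rbm43 at 24 h (-0.18 and -0.25) and Rbm4b at 48 h (0.13). Rbm25 at 10 µM and 3 h differed from control by -0.09, with a control range that covered all 5 of its 10 µM libraries. That cover rested on control replicate 3 at 211.2 CPM. The other control libraries, at 241.3 to 244.9 CPM, lay above all 10 µM libraries. Between the doses at 3 h, Srsf2 was -0.24 ± 0.045 at 50 µM relative to 10 µM on the log2 scale and Rbm25 -0.21 ± 0.049, with adjusted p of 0.082 and 0.431 in edgeR. With the replicate block edgeR gave 0.35 and 0.827, and in the fit of all 45 libraries 0.233 and 0.756. The libraries of both doses did not overlap for these genes or for Srsf3 and Srsf11, against 0.497% of all genes lower without overlap. EdgeR called 0 of 66 members between the doses at 3 h and at 24 h. At an unadjusted p under 0.05 there were 8 (12.1%) at 3 h, against 4.41% of all genes. At 24 h there were 2 (3.03%), against 5.56%. DESeq2 called 2 at 3 h, Rbm25 and Srsf2, and 0 at 24 h, and limma-voom 0 at both.

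At 24 h edgeR called 0 members at 50 µM, where 0.375% of 16512 genes were called. There were 9 of 66 members (13.6%) at an unadjusted p under 0.05, against 12.4% of all genes. Limma-voom called 0, and DESeq2 called Rbm43 and Srsf2 lower. In the authors' deposited DESeq2 results 268 of 30024 genes had an adjusted p under 0.05 at this time. With the block, which the libraries allow at this time too, 2 members were lower and 1 higher, where 1.99% of all genes were called lower and 3.76% higher. Rbm43, a little-studied member, read 12, 10.8, 10.4, 10 and 11.3 CPM in control and 8.84, 7.54, 8.16, 8.17 and 8.19 CPM at 50 µM. The 50 µM libraries were all below control, and those of 10 µM (7.42 to 11.2 CPM) spanned both. The difference was -0.41 ± 0.10 (edgeR, adjusted p = 0.073, and 0.0176 with the block).

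Srsf2 read 251.1, 238.5, 243.7, 256.6 and 274.4 CPM at 50 µM and 24 h, against 268 to 296.5 CPM in control. The groups met at 1 library, replicate 5 of 50 µM. The difference was -0.17 ± 0.049 (edgeR, adjusted p = 0.152, and 0.00855 with the block). Rbm41 differed by 0.37 ± 0.113, with an adjusted p of 0.172 in edgeR without and 0.0235 with the block. Rbm15 and Srsf12 followed at 0.20 and -0.22 (edgeR, adjusted p = 0.286 and 0.337). Rbm25, at 198 to 226 CPM against 197 to 260.4 CPM in control, lay within the control range. Control replicate 5 set the upper end of that range, and the other control libraries read 197 to 218.6 CPM. Of 8 macrophage and leukocyte markers 1 was lower at 50 µM, and their part in these values was not tested.

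At 48 h edgeR again called 0 members between 50 µM and control, where 1.00% of 16663 genes were called, and 7 of 66 members (10.6%) had an unadjusted p under 0.05, against 12.9% of all genes. Limma-voom called 0, and DESeq2 called Rbm24 higher. In the authors' deposited DESeq2 results 435 of 30030 genes had an adjusted p under 0.05 at this time. Rbm24 read 48.5, 60.1, 51.7, 61.2 and 65.9 CPM in control, 61.2, 60.1, 48.7, 54.9 and 64 CPM at 10 µM, and 84.3, 74.5, 66.5, 75.1 and 67.3 CPM at 50 µM. Each 50 µM library was above each library of the other groups. Against control the difference was 0.35 ± 0.086 (edgeR, adjusted p = 0.0615), and against 10 µM it was 0.35 ± 0.073 (edgeR, adjusted p = 0.0214). Rbm24 was thereby the one member that edgeR called between the doses at 48 h, where 0.436% of 16505 genes were called higher. Next by p between the doses were Rbm3 and Hnrnpr, at 0.13 and 0.12 (edgeR, adjusted p = 0.159 and 0.246). Rbm3 read 250 to 274.7 CPM at 50 µM and 237 to 246.7 CPM at 10 µM, without overlap. Hnrnpr differed from control by 0.16 (edgeR, adjusted p = 0.256).

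The Rbm24 call between doses was kept in 4 of 10 fits that left out 1 library, with adjusted p from 0.0163 (without 10 µM replicate 5) to 0.0811 (without 50 µM replicate 4), and was 0.0564 in the fit of all 45 libraries. In the same comparison 0 of 12 skeletal muscle markers passed, with Myod1 at 0.25 (edgeR, adjusted p = 0.196), Acta1 at 0.17 and Mylpf at -0.05. The summed muscle level ranged over 4631 to 4940 CPM at 50 µM, 3924 to 5234 CPM at 10 µM and 3889 to 5696 CPM in control. Rbm43 was again below control at 50 µM, with 8.01 to 10.3 CPM against 10.7 to 13.1 CPM, a difference of -0.36 ± 0.108 (edgeR, adjusted p = 0.139). Of other splicing regulators, Khdrbs3 was lower at 50 µM (-0.34, edgeR adjusted p = 0.0467). Macrophage and leukocyte markers were lower in 3 of 8 cases at this time and endothelial markers in 1 of 8, and their part in these values was not tested.

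Whether the 50 µM response differed between times was tested directly. EdgeR's interaction contrasts called 0 of 66 members between 24 and 3 h, 48 and 3 h, or 48 and 24 h, where 0%, 0.0922% and 0% of 18432 genes were called. At an unadjusted p under 0.05 there were 6, 10 and 2 members (9.09%, 15.2% and 3.03%), against 6.58%, 8.34% and 3.47% of all genes. For Rbm25 the response was 0.21 ± 0.092 less negative at 24 h than at 3 h (adjusted p = 0.7 in edgeR), and for Srsf2 it was 0.09 ± 0.076 less negative (0.831). For Rbm24 the response at 48 h exceeded that at 3 h by 0.34 ± 0.131 (edgeR, adjusted p = 0.433). The early differences of Rbm25 and Srsf2 and the late one of Rbm24 were not shown to be limited to their times.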

How the data were processed

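RNA from 45 mouse forelimb bud cultures was enriched for poly-A and sequenced. Tools listed for the reads are STAR 2.5, HTSeq 0.6.1, CASAVA 1.8 and DESeq2, on build mm10, per the submitters' processing notes, with no settings given. The deposited read counts per gene are whole numbers that the authors made for each library, and genes with fewer than 2 reads in a table are not listed. The authors' tables also hold log2 fold changes and adjusted p-values, used only where named. The 9 tables were joined by gene, and 1319925 control counts found more than once did not differ. A gene not listed in a table was given 0.

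Groups were taken from the sample titles. Each comparison was fitted on its own 10 libraries in edgeR 4.0.16 (TMM, filterByExpr, robust quasi-likelihood test), in R 4.3.3. Differences of response were fitted on all 45 libraries. The fit was tested on simulated data. Alternatives were other scaling (relative log expression), no low-count filter, DESeq2 1.42.0, limma-voom (limma 3.58.1), the replicate number as a block, a fit of all 45 libraries, and leaving out each library.

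The member rule, which uses symbols alone, and the lists were set with earlier results of these data known. Genes named were the called members and, where fewer than 5 were called, those of the 5 smallest p that the text singles out, the 8 largest rises and falls over control time, a fixed panel, and the highest and lowest per kb. Group ranges, non-overlapping groups and other members named beside them were chosen after values were seen. Same-numbered libraries deviated together (every correlation over 0.1) at 24 h in all 3 treatment comparisons. They also did so at 3 h between 50 µM and control (0.15 to 0.30). The other 8 comparisons did not meet this rule, though some leaned the same way. Between the doses at 3 h the mean was 0.16, and 8 of 10 libraries were closest to their own number. The mean was 0.13 between control 24 and 48 h (6 of 10) and -0.09 between control 3 and 48 h (0 of 10). Protein sequences were not used here.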

Additional observations from a re-analysis of the deposited data

Results flagged for a closer look

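In 31 members, each group of 5 libraries was examined for a library whose gap to its nearest neighbour is large against the group's range, and 16 of 279 groups held one. Chance alone gives about 1 in 20 groups. At 3 h, Rbm25 read 211.2 CPM in control replicate 3, against 241.3 to 244.9 in the other libraries. Srsf11 read 310.7 CPM in 10 µM replicate 4 (others 276.2 to 286.1), Hnrnpa1 1667.5 CPM in 50 µM replicate 4 (1838.2 to 1895.6) and Rbm45 56.25 CPM in 50 µM replicate 5 (47.71 to 49.51).

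At 24 h, 10 µM replicate 5 was apart for Srsf2 at 305.4 CPM (262.9 to 272.9) and for Hnrnpa0 at 771.4 CPM (946.9 to 1015.8). Control replicate 5 was high for Rbm5 at 383.8 CPM (329.7 to 342.1) and for Rbm39 at 551.6 CPM (493.3 to 508.1), and control replicate 3 for Rbm46 at 3.695 CPM (2.242 to 2.646). In the 50 µM group, Rbm4b was low in replicate 2 at 44.72 CPM (49.05 to 50.71) and Rbm24 low in replicate 3 at 48.38 CPM (59.75 to 61.6).

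At 48 h, Rbm15b was high in replicate 3 of both control, at 139.4 CPM (124 to 127.4), and 50 µM, at 135 CPM (124.9 to 127.6). Rbm45 was high in control replicate 3 at 51.17 CPM (44.35 to 46.23). Hnrnpk was high in 10 µM replicate 5 at 725.2 CPM (689.3 to 697.9), and Rbm4b low in 50 µM replicate 2 at 39.15 CPM (44.04 to 44.45).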

How the results depend on the processing

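Of the counts of members called, 189 settings stayed within 1.5 times the count reported and 33 did not. For 50 µM against control at 3 h the count of 1 became 2 without the low-count filter, 4 with DESeq2, 0 with limma-voom, 9 with the replicate block and 2 in the fit of all 45 libraries, and lay between 0 and 2 when 1 library was left out. At 24 h the 0 became 2 with DESeq2, 3 with the block and 1 in the fit of all 45 libraries (0 to 1 with a library left out). At 48 h the 0 became 1 without the filter, 1 with DESeq2 and 2 in the fit of all 45 libraries (0 to 1). Between the doses, the 0 at 3 h became 1 without the filter and 2 with DESeq2, and the 1 at 48 h became 2 with DESeq2 and 0 in the fit of all 45 libraries (0 to 1). For control 48 against 24 h the 12 became 19 with the replicate block and 25 in the fit of all 45 libraries (8 to 14). Leaving out 1 library gave 29 to 36 calls between 3 and 24 h, 39 to 45 between 3 and 48 h and 0 in the other comparisons. The replicate block changed no other count by over 1.5 times. In the comparisons where the numbers did not pair the libraries, the block result is a number shared by label alone. Of the single-gene values, 1225 kept their direction and side of the threshold, 29 lost and 25 gained the threshold, and 0 reversed. Another scaling moved the median of all genes by at most 0.008. The cause was not tested.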
